A study of Homo sapiens with 12 samples.

Results

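The genes described here are 48 genes of DNA replication and S phase, taken as a fixed list of symbols and found among the 19907 genes with values in the 12 libraries. All 48 passed the filter on low values (10 or more in 3 libraries or more), as 15957 genes did in all. They fall into 12 roles: 5 subunits of the origin recognition complex (ORC1, ORC2, ORC3, ORC5 and ORC6), 2 helicase loaders (CDC6 and CDT1), the 6 subunits of the MCM ring (MCM2 to MCM7), 6 genes of helicase activation (MCM10, CDC45 and GINS1 to GINS4), 4 of DNA polymerase alpha-primase (POLA1, POLA2, PRIM1 and PRIM2), and 4 of polymerases epsilon and delta (POLE, POLE2, POLD1 and POLD3). The others are 7 genes of the sliding clamp and its loaders (PCNA, RFC1 to RFC5 and DSCC1), 3 of the single-strand binding complex RPA (RPA1, RPA2 and RPA3), 2 of Okazaki fragment maturation (FEN1 and LIG1), 3 of nucleotide supply (RRM1, RRM2 and TYMS), 3 E2F transcription factors (E2F1, E2F2 and E2F8) and 3 genes of chromatin assembly behind the fork (CHAF1A, CHAF1B and UHRF1).

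In G1 the origin recognition complex, CDC6 and CDT1 load the MCM ring onto origins as an inactive helicase. CDC45 and the GINS complex switch the ring on at the start of S phase, polymerase alpha-primase lays down primers, and polymerases epsilon and delta extend them while held to DNA by the clamp PCNA. Many of these genes are transcribed in late G1 by activating E2F factors, of which E2F1 and E2F2 are examples, whereas E2F8 is a repressor of the same family. In many cell types glucocorticoids are known to slow proliferation in G1.

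The 4 groups of 3 libraries each were compared: S134A-GR Dex, S134A-GR vehicle, WT-GR Dex and WT-GR vehicle. All were MDA-MB-231 cells, a human breast cancer line without oestrogen and progesterone receptors, and expressed the glucocorticoid receptor (GR) either with a phosphorylated serine changed to alanine (S134A-GR) or as wild type (WT-GR). Before treatment every culture had been starved of serum for 18 h (1% DCC), and it then received vehicle or, for Dex, 1 µM of the synthetic receptor agonist dexamethasone, for 6 h. The labels name neither the clones nor the promoter behind each receptor, so that genotype and any other difference between the cell populations cannot be told apart. Nor do they give the source of the 3 replicates: where these share a culture, p-values measure technical spread alone.

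Values are normalized read counts, and recovered depth was 56.4 to 100.6 M reads (M, mega) per library. The receptor substitution cannot be seen in gene-level counts, but all 9 measured glucocorticoid-induced control genes rose with Dex in both genotypes (limma, adjusted p under 0.05). All 6 mesenchymal markers of the line were high, with VIM at 366500 to 431200 normalized reads over the 12 libraries. ESR1 was at 0 to 5.655 and CDH1 at 0 to 17.07, while EPCAM, GATA3 and FOXA1 were present at 314.9 to 1093, 785.5 to 1574 and 137.3 to 302.6. The blood markers PTPRC and CD14 summed to 6.34 to 62.89. The gene names of the Dex libraries were repaired by line order, and every Dex value below rests on that repair. Replicates of WT-GR Dex varied most: the median SD over the 48 genes was 0.091 on the log2 scale, against 0.056 in S134A-GR Dex and 0.034 to 0.044 in the vehicle groups.

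Because many of these genes are known E2F targets, the 250 bases upstream of their start sites were searched for motifs. RefSeq promoters (GRCh38.p14) were matched for 40 of the 48 genes. CDC6, ORC1 and E2F1 are shown for their large Dex responses, PCNA as the clamp, and MCM6 and RRM2 for their differences between the genotypes. Capitals mark the E2F letters (TTTCGCGC, TTTGGCGC, TTTCCCGC or TTTGCCGC on either strand) and the CCAAT box (CCAAT on either strand), and each sequence reads 5′ to 3′ along the gene's strand.
CDC6 (chr17:40287629-40287878, plus strand): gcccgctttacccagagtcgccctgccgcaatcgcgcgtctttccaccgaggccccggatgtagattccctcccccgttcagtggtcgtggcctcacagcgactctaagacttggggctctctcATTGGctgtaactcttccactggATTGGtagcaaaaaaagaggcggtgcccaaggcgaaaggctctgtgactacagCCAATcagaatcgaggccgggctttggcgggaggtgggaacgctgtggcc
ORC1 (chr1:52404424-52404673, minus strand): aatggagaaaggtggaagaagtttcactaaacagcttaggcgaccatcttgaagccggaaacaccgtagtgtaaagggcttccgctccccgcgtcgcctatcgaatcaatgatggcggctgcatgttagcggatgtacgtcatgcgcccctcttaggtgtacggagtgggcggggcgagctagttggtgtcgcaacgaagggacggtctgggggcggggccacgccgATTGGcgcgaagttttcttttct
E2F1 (chr20:33686386-33686635, minus strand): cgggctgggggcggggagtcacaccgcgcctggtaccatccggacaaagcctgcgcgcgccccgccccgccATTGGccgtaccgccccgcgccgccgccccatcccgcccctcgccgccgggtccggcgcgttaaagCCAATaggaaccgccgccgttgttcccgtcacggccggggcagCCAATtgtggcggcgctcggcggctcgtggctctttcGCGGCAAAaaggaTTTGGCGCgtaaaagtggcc
PCNA (chr20:5126623-5126872, minus strand): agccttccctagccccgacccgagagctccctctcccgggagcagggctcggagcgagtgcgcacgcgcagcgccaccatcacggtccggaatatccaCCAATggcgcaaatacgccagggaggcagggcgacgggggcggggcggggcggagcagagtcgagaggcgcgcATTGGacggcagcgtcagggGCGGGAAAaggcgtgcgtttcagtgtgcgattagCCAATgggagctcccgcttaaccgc
MCM6 (chr2:135876444-135876693, minus strand): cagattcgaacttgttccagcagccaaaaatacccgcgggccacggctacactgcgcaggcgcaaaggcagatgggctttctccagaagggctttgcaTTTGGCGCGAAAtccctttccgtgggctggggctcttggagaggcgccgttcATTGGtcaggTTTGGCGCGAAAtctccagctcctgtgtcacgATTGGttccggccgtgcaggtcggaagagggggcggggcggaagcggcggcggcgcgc
RRM2 (chr2:10122489-10122738, plus strand): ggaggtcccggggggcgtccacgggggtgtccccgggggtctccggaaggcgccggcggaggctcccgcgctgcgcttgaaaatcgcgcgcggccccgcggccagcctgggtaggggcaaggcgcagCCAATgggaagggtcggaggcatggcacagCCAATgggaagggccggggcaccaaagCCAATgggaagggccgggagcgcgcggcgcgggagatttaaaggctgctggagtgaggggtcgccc

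E2F letters were present in 16 of the 40 promoters (40%), against 2.79% of the 27305 RefSeq promoters of the same length and 4.21% of the 11302 that belong to genes tested here. E2F1 had 2 matches on opposite strands, the nearer with 12 bases between it and the start site. PCNA had 1, with 51 bases in between, and its letters overlap a GC box. MCM6 had the 12-letter stretch TTTGGCGCGAAA in 2 places, each of which holds overlapping matches on the 2 strands. CDC6, ORC1 and RRM2 had none of the E2F letters searched in this window, which says nothing of other sites. The CCAAT box was present in 24 of the 40 (60%), against 33% of all promoters and 34.5% of those of tested genes. The GC box (GGGCGG on either strand, which can overlap an E2F match) was in 27 (67.5%), against 42.3% of all promoters and 64.5% of those of tested genes. The palindromic glucocorticoid response element was in 0 of the 40, against 0.33% of all promoters and 0.195% of those of tested genes. Most sets of 40 promoters would lack so rare a match, so that 0 says nothing particular of these genes. Such matches are descriptions of letters, not of bound sites. DSCC1, E2F8, GINS4, MCM4, MCM5, POLD3, RPA2 and RPA3 had no matched promoter.

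Genes of origin recognition, the helicase, clamp loading, the E2F factors and chromatin assembly were among those that fell with Dex in both genotypes. In S134A-GR cells 27 of the 48 did not pass, among them all 4 genes of polymerases epsilon and delta. In S134A-GR cells 21 of the 48 genes fell and 0 rose (limma, Benjamini-Hochberg adjusted p under 0.05 over all genes tested), beside a background of 7.76% of all genes tested that fell and 7.99% that rose (15.7% in either direction). In WT-GR cells 34 fell and 0 rose, beside a background of 14% and 13.9% (27.9%). The median log2 difference over the 48 genes was -0.16 in S134A-GR cells (range -0.51 to 0.05) and -0.24 in WT-GR cells (range -0.57 to 0.13), where the median over all genes tested was -0.02 in both. The changes were shallow: the deepest fall, that of CDC6 in WT-GR cells, was to 0.672 of its vehicle level. At an unadjusted p under 0.05, 26 and 41 of the 48 genes differed in S134A-GR and WT-GR cells, beside 25.8% and 39.6% of all genes tested.

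**Figure D1:**
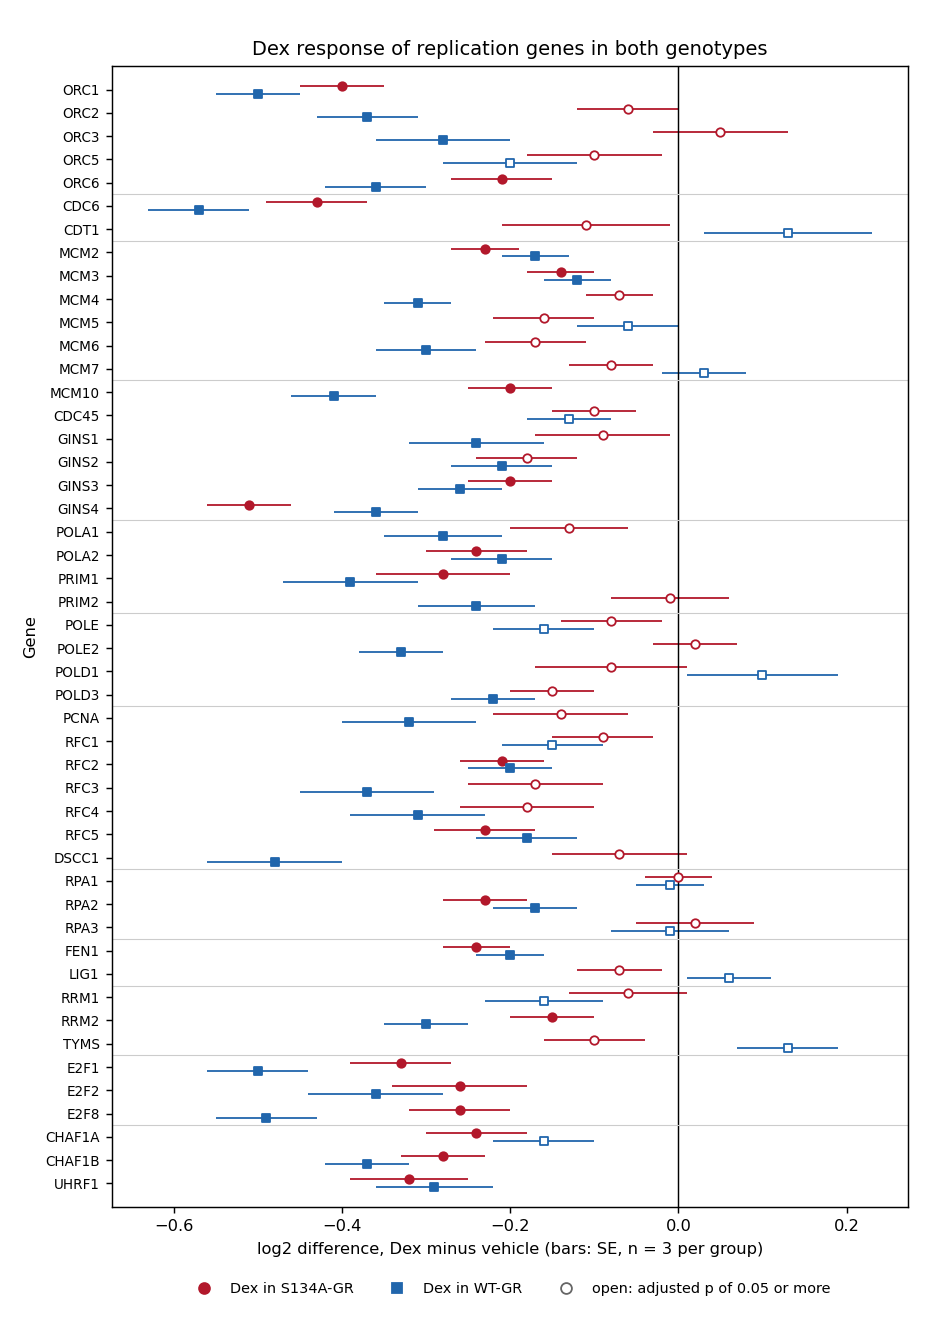
Log2 difference, Dex minus vehicle, of the 48 genes in S134A-GR (red circles) and WT-GR cells (blue squares), in order of role, with bars of 1 SE from limma (n = 3 per group) and open symbols where the adjusted p was 0.05 or more. Nearly all symbols sit left of 0, with 45 of 48 below 0 in S134A-GR and 43 of 48 in WT-GR cells, and the few on the right are open. Over all genes tested, 54% and 52.8% were below 0.

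Measured without a model, the Dex and vehicle libraries did not overlap for 31 genes in S134A-GR cells, all lower with Dex, where 20.4% of all genes tested were apart in that direction. In WT-GR cells they did not overlap for 38 genes, again all lower, against 18.3%. Gene by gene against the WT-GR vehicle mean, 36, 38 and 39 of the 48 genes were lower in the 3 libraries of S134A-GR Dex, against 27, 31 and 28 in those of S134A-GR vehicle. In WT-GR Dex, 42, 43 and 44 genes were lower. In the WT-GR vehicle libraries, which make up that mean, 21, 35 and 13 were lower, so this count moved widely without treatment. In this count WT-GR vehicle replicate 2 came close to S134A-GR Dex replicate 1, but not in size. The median log2 difference over the 48 genes was -0.02 in that vehicle library and -0.20 in that Dex library. In RNA from whole cultures, fewer cells in S phase and less of these mRNAs per cell cannot be told apart. Of the epithelial markers, GATA3 rose in both genotypes (0.45 in S134A-GR and 0.50 in WT-GR cells). FOXA1 and EPCAM had lower means with Dex, at 239.6 and 355 against 289.4 and 378.2 with vehicle in S134A-GR cells. In WT-GR cells they were at 197.7 and 996.1 against 229.1 and 1024. CDH1 was lower with Dex in S134A-GR cells (2.455 against 9.374) and higher in WT-GR cells (12.42 against 6.237). The 5 measured markers summed to 2017 to 2214 normalized reads in S134A-GR Dex and 1693 to 1862 in S134A-GR vehicle. In WT-GR cells the sums were 2277 to 2513 with Dex and 2030 to 2109 with vehicle. GATA3 carried the rise in these sums. The part of these markers in the Dex responses was not tested.

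**Figure D2:**
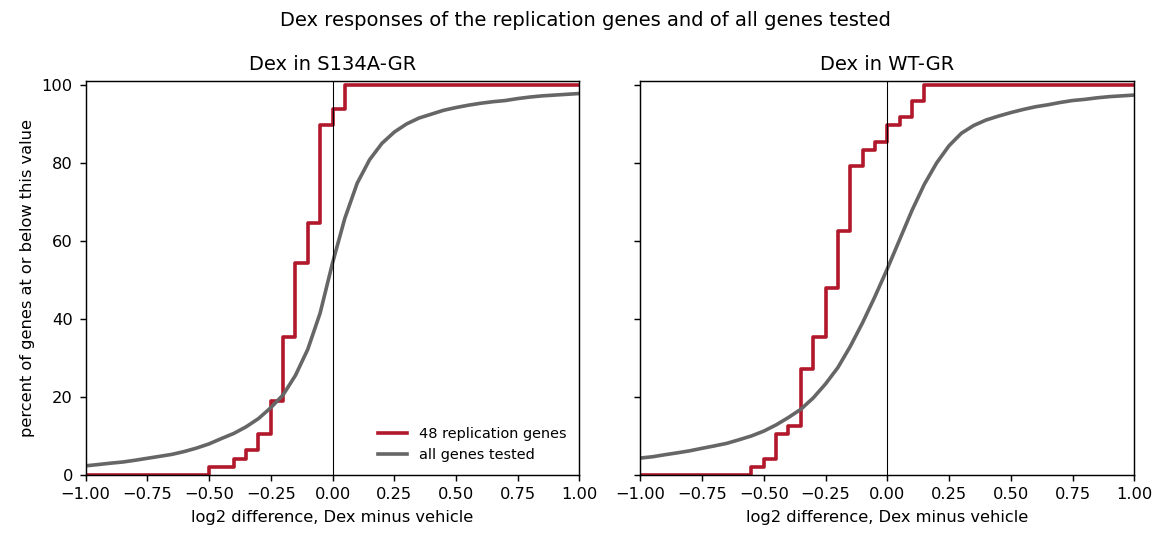
Cumulative share of genes (y axis, percent) at or below each log2 difference, Dex minus vehicle (x axis, shown from -1 to 1), for the 48 replication genes (red) and all 15957 genes tested (grey), in S134A-GR (left) and WT-GR cells (right). The replication genes form a narrow band shifted below 0, with medians of -0.16 and -0.24 against -0.02 for all genes in both panels, and they reach neither of the long tails of all genes.

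Among the origin recognition subunits, ORC1 changed most. ORC1 is the subunit whose level cycles in human cells. It had 1953, 1791 and 1862 normalized reads in S134A-GR Dex, against 2446, 2449 and 2494 in S134A-GR vehicle. The same gene had 1798, 1785 and 1771 in WT-GR Dex, against 2586, 2455 and 2526 in WT-GR vehicle. The Dex libraries lay below every vehicle library of their genotype, and the log2 differences were -0.40 (SE 0.05, adjusted p 6.65e-05) in S134A-GR and -0.50 (SE 0.05, adjusted p 7.89e-06) in WT-GR cells by limma. ORC6, the smallest subunit, fell in both genotypes, by 0.21 and 0.36 on the log2 scale (S134A-GR and WT-GR in that order). The call in S134A-GR cells was lost when any of 5 libraries of that genotype was left out, all but vehicle replicate 2. ORC2 and ORC3 fell in WT-GR cells, by 0.37 and 0.28, and differed by -0.06 and 0.05 in S134A-GR cells, where neither was called. ORC5 was called in neither, at -0.10 and -0.20.

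The loader CDC6 had the largest fall with Dex in WT-GR cells. CDC6 had 8195, 7275 and 7376 normalized reads in S134A-GR Dex, against 10130, 10060 and 10520 in S134A-GR vehicle. This loader had 6632, 7453 and 7794 in WT-GR Dex, against 10710, 10740 and 11050 in WT-GR vehicle. Dex values lay below all vehicle values in both genotypes. The log2 difference was -0.43 (SE 0.06, adjusted p 0.000169) in S134A-GR and -0.57 (SE 0.06, adjusted p 1.08e-05) in WT-GR cells by limma, which correspond to changes of -25.6% and -32.7%. CDT1, its partner in loading, was not called in either genotype, at -0.11 (SE 0.10) in S134A-GR and 0.13 (SE 0.10) in WT-GR cells. Its WT-GR Dex libraries, at 6305, 5745 and 4685, overlapped the WT-GR vehicle libraries, at 4799, 5028 and 5374.

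Of the 6 MCM subunits, which form a ring with 1 copy of each, 2 fell in S134A-GR and 4 in WT-GR cells. MCM2 and MCM3 fell in both genotypes, by 0.23 and 0.14 on the log2 scale in S134A-GR and by 0.17 and 0.12 in WT-GR cells. MCM2 had 15150, 15830 and 15810 normalized reads in S134A-GR Dex, against 18210, 18410 and 18390 in S134A-GR vehicle. In the other genotype MCM2 had 16050, 15860 and 14610 in WT-GR Dex, against 17470, 17050 and 17780 in WT-GR vehicle. For MCM2 the Dex and vehicle libraries did not overlap in either genotype, though its WT-GR call was lost with only the compared groups in the fit and without WT-GR Dex replicates 2 and 3. MCM4 and MCM6 fell in WT-GR cells, by 0.31 and 0.30, and were at -0.07 and -0.17 in S134A-GR cells without passing the test. MCM5 and MCM7 passed in neither genotype, at -0.16 and -0.08 in S134A-GR and -0.06 and 0.03 in WT-GR cells. Per kb of exon, the levels in S134A-GR vehicle were 8459 for MCM3, 8430 for MCM7, 5062 for MCM2, 3963 for MCM4, 3593 for MCM5 and 2133 for MCM6. In WT-GR vehicle the order by the same scale was MCM3, MCM7, MCM2, MCM4, MCM5 and MCM6 as well, at 9690 to 2934 normalized reads per kb.

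The 6 genes of helicase activation were all below 0 in both genotypes, with medians of -0.19 in S134A-GR and -0.25 in WT-GR cells, beside -0.15 for the MCM ring in each, and 3 and 5 of them fell. GINS4 had the largest Dex response of any of the 48 genes in S134A-GR cells. GINS4 had 3674, 3620 and 3451 normalized reads in S134A-GR Dex, against 5048, 5105 and 5175 in S134A-GR vehicle. In cells with the wild-type receptor it had 2863, 2781 and 2926 in WT-GR Dex, against 3588, 3657 and 3763 in WT-GR vehicle. Dex values were below vehicle values throughout, with log2 differences of -0.51 (SE 0.05, adjusted p 1.7e-06) in S134A-GR and -0.36 (SE 0.05, adjusted p 5.54e-05) in WT-GR cells by limma. GINS3 and MCM10 also fell in both, by 0.20 each in S134A-GR and by 0.26 and 0.41 in WT-GR cells. The S134A-GR call of GINS3 was lost when any of 4 libraries of that genotype was left out, and that of MCM10 without S134A-GR vehicle replicate 3. GINS1 and GINS2 fell in WT-GR cells, by 0.24 and 0.21, and were at -0.09 and -0.18 in S134A-GR cells. CDC45 passed in neither, at -0.10 and -0.13.

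All 4 genes of polymerase alpha-primase, which starts each new strand, fell in WT-GR cells, by 0.21 (POLA2) to 0.39 (PRIM1). In S134A-GR cells POLA2 and PRIM1 fell, by 0.24 and 0.28, and POLA1 and PRIM2 were at -0.13 and -0.01. Of the replicative polymerases, 0 of the 4 genes passed in S134A-GR cells and 2 fell in WT-GR cells. These were POLE2, an accessory subunit of polymerase epsilon (0.02 in S134A-GR and -0.33 in WT-GR cells), and POLD3, an accessory subunit of polymerase delta (-0.15 and -0.22). The catalytic subunits POLE and POLD1 passed in neither genotype, at -0.08 for each in S134A-GR and at -0.16 and 0.10 in WT-GR cells.

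Among the sliding clamp and its loaders, 2 of 7 genes fell in S134A-GR and 6 of 7 in WT-GR cells. PCNA is the ring that holds polymerases to DNA. It had 7148, 6281 and 6380 normalized reads in S134A-GR Dex, against 7243, 7044 and 7467 in S134A-GR vehicle. In WT-GR cells the clamp had 6289, 7377 and 7891 in WT-GR Dex, against 8364, 8997 and 9465 in WT-GR vehicle. The Dex and vehicle libraries overlapped in S134A-GR cells (log2 difference -0.14, SE 0.08, adjusted p 0.312, limma) and did not overlap in WT-GR cells (-0.32, SE 0.08, adjusted p 0.00839), where the Dex libraries also spread widest. DSCC1, part of the loader that works with sister chromatid cohesion, was at -0.07 in S134A-GR cells without passing and fell by 0.48 in WT-GR cells. Its WT-GR Dex libraries held 1350, 1534 and 1386 normalized reads, against 2061, 1939 and 1937 in WT-GR vehicle. RFC2 and RFC5 fell in both genotypes, by 0.21 and 0.23 in S134A-GR and by 0.20 and 0.18 in WT-GR cells, and RFC3 and RFC4 fell in WT-GR cells, by 0.37 and 0.31. RFC1, the large subunit, passed in neither, at -0.09 and -0.15.

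At the single strand and on the lagging strand, 1 gene of each role moved. RPA2 fell by 0.23 in S134A-GR and 0.17 in WT-GR cells, while RPA1 and RPA3 lay within 0.02 of 0 in both genotypes. FEN1, the nuclease that trims Okazaki fragments, fell by 0.24 and 0.20, and the ligase LIG1 was at -0.07 in S134A-GR and 0.06 in WT-GR cells without passing. In nucleotide supply RRM2, the small subunit of ribonucleotide reductase, fell in both genotypes. RRM2 had 14700, 13730 and 13720 normalized reads in S134A-GR Dex, against 15530, 15760 and 15460 in S134A-GR vehicle. It had 20210, 22370 and 20330 in WT-GR Dex, against 26070, 25200 and 25860 in WT-GR vehicle. Dex libraries lay below vehicle libraries in each genotype, with log2 differences of -0.15 (SE 0.05, adjusted p 0.0399) in S134A-GR and -0.30 (SE 0.05, adjusted p 0.000354) in WT-GR cells by limma. The S134A-GR call was lost by edgeR with TMM (adjusted p 0.0541) but not by edgeR with library size alone (adjusted p 0.0385), and it was also lost without the filter on low values and when any of 6 libraries was left out. RRM1 was at -0.06 and -0.16 and thymidylate synthase TYMS at -0.10 and 0.13, and neither passed in either genotype.

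All 3 E2F factors fell in both genotypes. The activator E2F1 had 6283, 6553 and 6405 normalized reads in S134A-GR Dex, against 8244, 7708 and 8320 in S134A-GR vehicle. In WT-GR cells this factor had 5125, 5130 and 4584 in WT-GR Dex, against 6817, 6791 and 7384 in WT-GR vehicle. Its Dex and vehicle libraries did not overlap in either genotype, at log2 differences of -0.33 (SE 0.06, adjusted p 0.000657) in S134A-GR and -0.50 (SE 0.06, adjusted p 1.61e-05) in WT-GR cells by limma. The repressor E2F8 had 1289, 1344 and 1287 normalized reads in S134A-GR Dex, against 1616, 1523 and 1547 in S134A-GR vehicle. It held 1135, 1220 and 1292 in WT-GR Dex, against 1724, 1642 and 1752 in WT-GR vehicle. E2F8 values with Dex were again below those with vehicle, at -0.26 (SE 0.06, adjusted p 0.0127) and -0.49 (SE 0.06, adjusted p 7.15e-05). The first of these calls was lost without S134A-GR vehicle replicate 1 and without S134A-GR Dex replicate 3. E2F2 fell by 0.26 and 0.36, and its S134A-GR call was lost when any of 8 libraries was left out. Over the 40 genes with a promoter, the WT-GR median was -0.25 for the 16 with E2F letters and -0.24 for the 24 without. In S134A-GR cells it was -0.14 for those with and -0.19 for those without.

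CHAF1A and CHAF1B, subunits of the chaperone that deposits histones on new DNA, fell by 0.24 and 0.28 in S134A-GR cells, and in WT-GR cells CHAF1B fell by 0.37 and CHAF1A was at -0.16 (adjusted p 0.0536, limma). UHRF1, which carries DNA methylation through replication, fell by 0.32 and 0.29. In all, 20 genes fell in both genotypes, which are 95.2% of the 21 called in S134A-GR and 58.8% of the 34 called in WT-GR cells, and CHAF1A was the single gene called in S134A-GR alone. The share of all genes tested that fell in both genotypes is not reported here, so this overlap is not shown to be particular to replication genes. Of the calls, 10 of 21 in S134A-GR cells (ORC1, CDC6, MCM2, GINS4, RPA2, FEN1, E2F1, CHAF1A, CHAF1B and UHRF1) and 26 of 34 in WT-GR cells held whichever of the 12 libraries was left out. The WT-GR calls that did not were those of ORC3, MCM3, GINS1, GINS2, POLA2, PRIM2, RFC5 and RPA2. The S134A-GR count was 12 without S134A-GR Dex replicate 2, without S134A-GR Dex replicate 3 and without S134A-GR vehicle replicate 3, and 14 without S134A-GR vehicle replicate 1. Shares over all genes tested in those fits are not reported here.

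**Figure D3:**
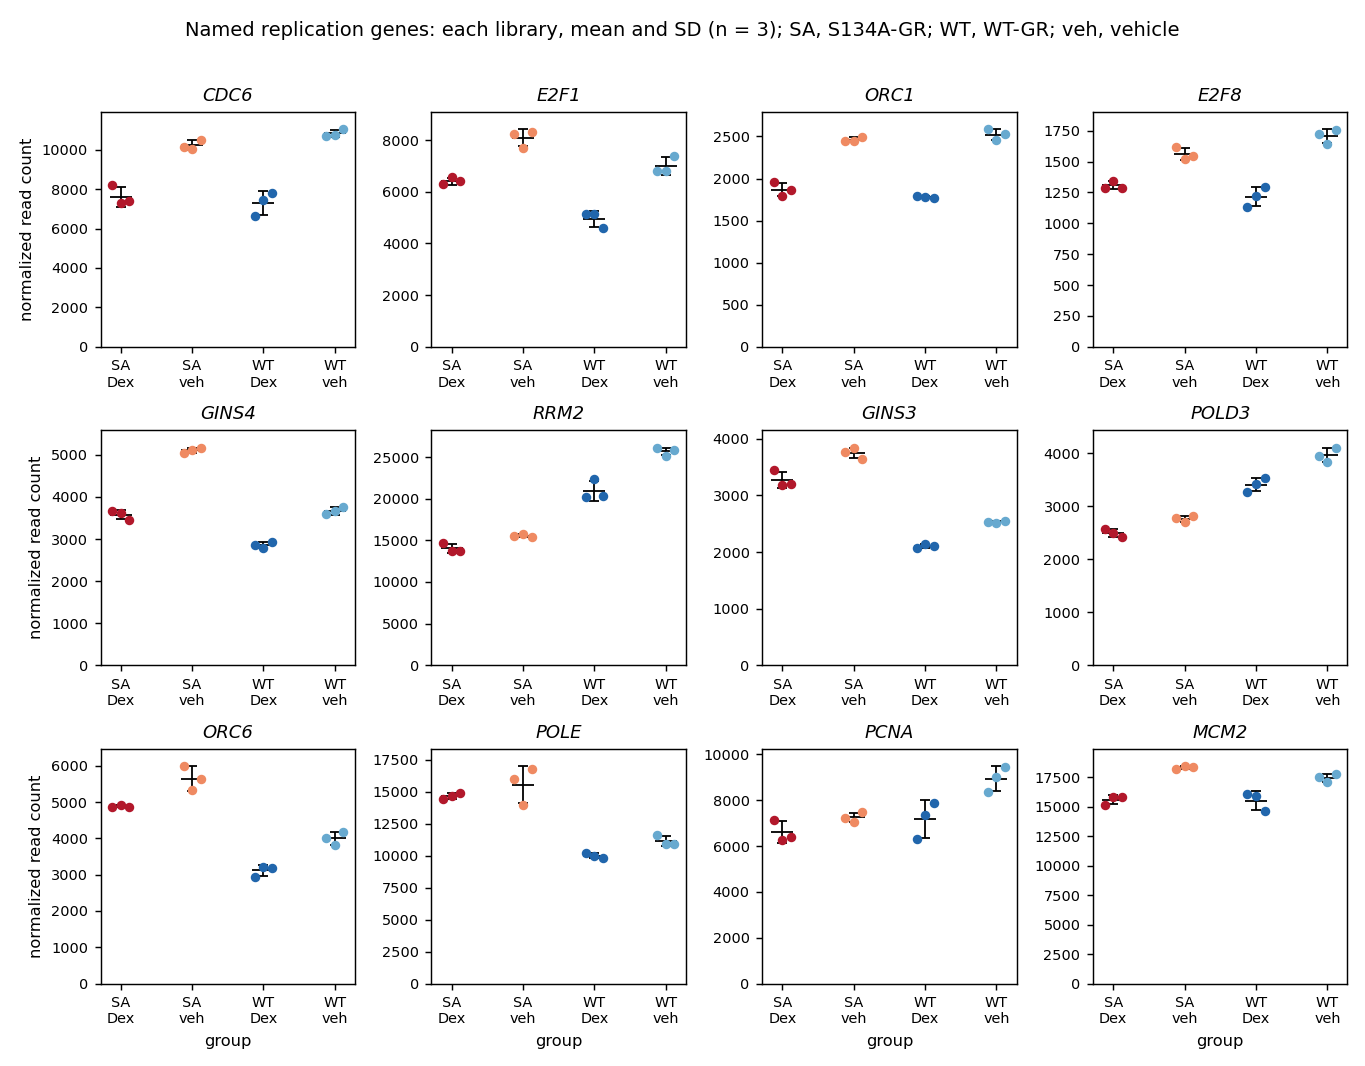
Normalized read counts (y axes from 0) of 12 replication genes in the 4 groups, in the order S134A-GR Dex, S134A-GR vehicle, WT-GR Dex and WT-GR vehicle, with a point per library and the mean and SD (n = 3). CDC6, ORC1, E2F1 and GINS4 are lower with Dex in both genotypes, whereas RRM2, GINS3, POLD3, ORC6 and POLE are separated mainly by genotype.

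A gene called in one genotype and not in the other is not shown to respond differently, so the difference between the responses was tested directly. In limma 0 of the 48 genes passed, beside a background of 0.414% of all genes tested, and 11 had an unadjusted p under 0.05, as had 17.5% of all genes tested. By edgeR 0 passed as well, with TMM (background 0.382%) and with scaling by library size alone (0.526%), and by DESeq2 4 passed (background 3.16%): ORC2, MCM4, POLE2 and DSCC1, each with the weaker response in S134A-GR cells. The S134A-GR response minus the WT-GR response was 0.31 for ORC2 (95% interval 0.12 to 0.49, limma adjusted p 0.139), 0.24 for MCM4 (0.12 to 0.37, adjusted p 0.0914), 0.34 for POLE2 (0.18 to 0.51, adjusted p 0.0768) and 0.41 for DSCC1 (0.17 to 0.66, adjusted p 0.139). Of the 48 differences 32 were above 0, as were 7976 of the 15957 over all genes tested. The median of the 48 was 0.08, beside -0.00 over all genes tested, with CDT1 and TYMS lowest at -0.23. For CDC6 the difference was 0.15, with a 95% interval of -0.04 to 0.33, for PCNA 0.18 (-0.06 to 0.42), for E2F1 0.17 (-0.00 to 0.34) and for ORC1 0.10 (-0.06 to 0.26), intervals that hold 0 as well as differences larger than those measured. GINS4 lay on the other side, at -0.15 (-0.29 to -0.01, adjusted p 0.258).

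The count for this difference depended on WT-GR Dex replicate 3. Without WT-GR Dex replicate 3, 9 genes passed in limma, beside a background of 10.1%, and 0 passed when any other single library was left out. With WT-GR Dex replicate 1 as the lone Dex library of that genotype, assumed to vary like the other groups, 14 passed, beside a background of 16%. WT-GR Dex replicate 1 was the lowest of its group for 29 of the 48 genes and the highest for 12. Replicate 3 was the highest for 23 and the lowest for 16. Shares over all genes tested for these ranks are not reported here. The median over the 48 genes, as a difference from the WT-GR vehicle mean, was -0.30, -0.21 and -0.21 in WT-GR Dex replicates 1, 2 and 3, beside -0.01 in each over all genes tested. Recovered depth was 56.9, 93.8 and 93 M reads in the same order, and its part in the result was not tested.

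**Figure D4:**
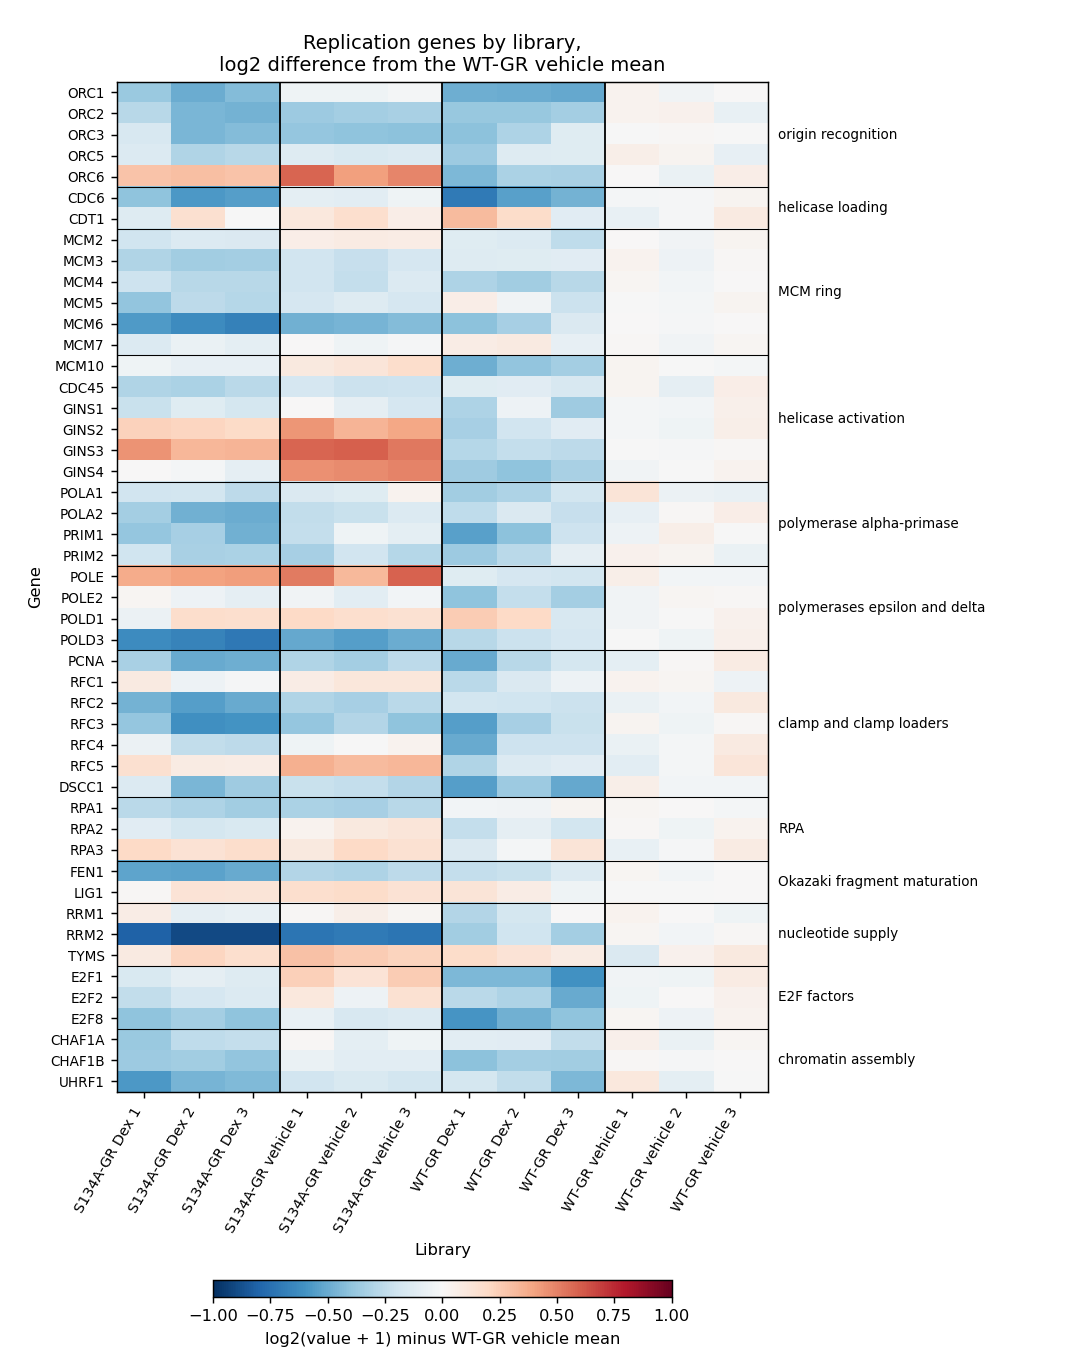
Log2(value + 1) of each of the 48 genes in each of the 12 libraries, minus the gene's WT-GR vehicle mean (color scale from -1 to 1), with rows in order of role and columns by group. The WT-GR Dex columns are lower than WT-GR vehicle for 42 to 44 of the 48 genes, and RRM2, POLD3 and MCM6 are low and ORC6, GINS3 and POLE high in all 6 S134A-GR columns.

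Between the genotypes, replication genes differed in both directions. With Dex, S134A-GR cells had 11 genes higher and 12 lower than WT-GR cells had, beside backgrounds of 23.4% higher and 26.3% lower (49.7% in either direction) over all genes tested. With vehicle, 10 were higher and 17 lower, beside 23.8% and 26.7% (50.5%). The median difference over the 48 genes was 0.02 with Dex and -0.08 with vehicle, beside 0.01 in both over all genes tested. Counts near the backgrounds, as with Dex, say nothing particular of replication genes. Scaling by library size alone moved the split to 23 higher and 6 lower with Dex (79.3% of calls higher, against 47.8%) and to 15 and 12 with vehicle (55.6%, against 37%). That scaling put the median of all genes at 0.11 with Dex and 0.09 with vehicle, and relative to these medians the 48 genes lay at 0.02 and -0.09. No called gene changed sign under it. Libraries did not overlap for 12 higher and 10 lower genes with Dex, against 25.3% and 27.1% of all genes, and for 15 higher and 22 lower genes with vehicle, against 31.5% and 32.7%.

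RRM2 was lower in every S134A-GR library. Its S134A-GR libraries lay at 13720 to 15760 normalized reads over both treatments, and its WT-GR libraries at 20210 to 26070. The log2 difference was -0.58 with Dex (SE 0.05, adjusted p 3.64e-07) and -0.72 with vehicle (SE 0.05, adjusted p 4.45e-08) by limma. POLD3 had 2573, 2495 and 2416 in S134A-GR Dex, against 3280, 3419 and 3541 in WT-GR Dex. Its vehicle values were 2780, 2708 and 2817 with S134A-GR and 3958, 3842 and 4111 with WT-GR. It was lower in every S134A-GR library, at log2 differences of -0.45 with Dex and -0.52 with vehicle. MCM6, RPA1, FEN1 and RFC2 were also lower under both treatments, at -0.33, -0.30, -0.32 and -0.31 with Dex and -0.46, -0.31, -0.29 and -0.30 with vehicle.

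Higher in S134A-GR cells were GINS3, ORC6 and POLE, of 3 different steps. GINS3 had 3444, 3188 and 3197 in S134A-GR Dex, against 2073, 2147 and 2103 in WT-GR Dex. Its vehicle values were 3775, 3832 and 3644 with S134A-GR and 2524, 2512 and 2545 with WT-GR. ORC6 had 4872, 4924 and 4877 in S134A-GR Dex, against 2936, 3221 and 3192 in WT-GR Dex. Its vehicle values were 5994, 5330 and 5624 with S134A-GR and 4010, 3822 and 4181 with WT-GR. POLE, the leading-strand polymerase, had 14410, 14690 and 14860 in S134A-GR Dex, against 10210, 9931 and 9806 in WT-GR Dex. Its vehicle values were 15990, 13930 and 16740 with S134A-GR and 11590, 10900 and 10920 with WT-GR. No S134A-GR library overlapped a WT-GR library of the same treatment for these 3 genes. Their log2 differences were 0.64, 0.65 and 0.55 with Dex and 0.57, 0.50 and 0.48 with vehicle, each with an SE of 0.05 or 0.06 and a limma adjusted p of 1.6e-05 or less. GINS4 and GINS2 were higher too, at 0.33 and 0.42 with Dex and 0.48 and 0.39 with vehicle, while the remaining subunit of that complex, GINS1, was at 0.07 and -0.08 and was not called. E2F1 was higher by 0.38 with Dex (adjusted p 8.57e-05) and 0.21 with vehicle (adjusted p 0.0063).

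CDC6, ORC1 and MCM2, which fell with Dex in both genotypes, were not called between genotypes under either treatment, at 0.06, 0.07 and 0.01 with Dex and -0.08, -0.03 and 0.07 with vehicle. Of the genes called lower with Dex (12) and with vehicle (17), 10 were in both lists, 83.3% and 58.8% of each, and of those called higher (11 and 10), 8 were in both, 72.7% and 80%. Shares of all genes tested that were called in the same direction under both treatments are not reported here. Among markers of other cell types, the epithelial marker EPCAM was at 355 normalized reads in S134A-GR Dex and 996.1 in WT-GR Dex (means), with 378.2 and 1024 for S134A-GR and WT-GR vehicle. GATA3 and FOXA1 went the other way, at 1489 and 239.6 in S134A-GR Dex against 1153 and 197.7 in WT-GR Dex. With vehicle these 2 were at 1093 and 289.4 in S134A-GR against 808.4 and 229.1 in WT-GR cells. CDH1 was lower in S134A-GR cells with Dex (2.455 against 12.42) and higher with vehicle (9.374 against 6.237). CD14, a blood marker, was at 4.415 and 33.99 with Dex and at 4.622 and 30.42 with vehicle (means, S134A-GR and WT-GR in that order). PTPRC was at 3.463 and 8.764 with Dex and, in the other direction, at 7.179 and 3.865 with vehicle. The 2 measured blood markers summed to 6.34 to 9.418 in S134A-GR Dex and 24.41 to 62.89 in WT-GR Dex, and to 8.11 to 16.93 in S134A-GR vehicle and 29.59 to 37.48 in WT-GR vehicle. Sums of the epithelial markers are given above. Their part in the genotype differences was not tested.

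**Figure D5:**
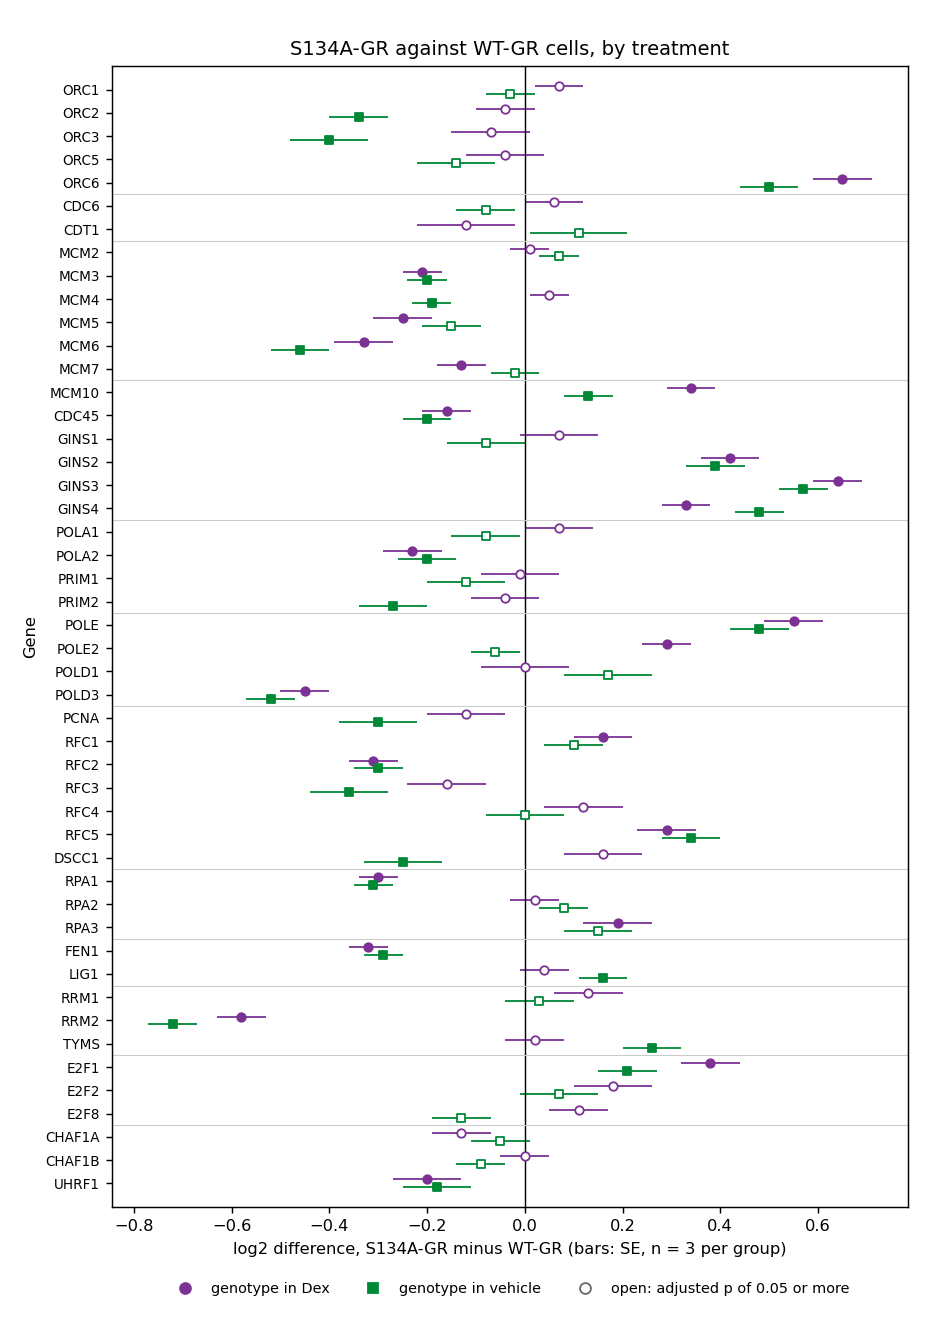
Log2 difference, S134A-GR minus WT-GR cells, of the 48 genes with Dex (purple circles) and with vehicle (green squares), in order of role, with bars of 1 SE from limma (n = 3 per group) and open symbols where the adjusted p was 0.05 or more. Symbols fall on both sides of 0, from -0.72 (RRM2 with vehicle) to 0.65 (ORC6 with Dex).

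Further genes of the same processes were counted from lists of known members. The backgrounds over all genes tested were 7.99% that rose and 7.76% that fell with Dex in S134A-GR cells. In WT-GR cells they were 13.9% and 14%. Of 31 other replication genes, 2 rose and 0 fell with Dex in S134A-GR cells, and 4 rose and 13 fell in WT-GR cells. Those that fell in WT-GR cells include CLSPN, a fork checkpoint mediator, ATAD5, which unloads PCNA, and CDC7, the kinase that fires origins, at -0.57, -0.62 and -0.37. TOP1, the topoisomerase, rose by 0.48 and 0.26. Of 23 genes of S phase repair and chromatin, 0 rose and 3 fell in S134A-GR cells, and 0 rose and 14 fell in WT-GR cells. DTL, which targets CDT1 for destruction, fell by 0.37 and 0.62, and the mismatch repair gene MSH6 fell by 0.21 and 0.36. Of 22 genes of nucleotide synthesis, 2 rose and 0 fell in S134A-GR cells, and 2 rose and 6 fell in WT-GR cells. IMPDH1, of guanine nucleotide synthesis, rose by 0.98 and 1.35.

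Upstream of S phase, 29 genes that control its entry gave 2 that rose and 6 that fell in S134A-GR cells, and 3 that rose and 9 that fell in WT-GR cells. The repressor E2F7 fell by 0.91 and 1.01, and the G1 cyclin CCND1 by 0.50 and 0.60. The CDK inhibitor CDKN1A rose by 1.05 and 0.74, and MYC rose by 0.89 and 0.80. CCNE2, a cyclin E, fell by 0.36 in S134A-GR cells (SE 0.10, adjusted p 0.0218) and by 1.07 in WT-GR cells (SE 0.10, adjusted p 2.43e-06), and it was the 1 gene of these lists of the cell cycle whose responses differed in the direct test (0.71, SE 0.14, adjusted p 0.0445, limma). Mitosis genes gave 1 that rose and 2 that fell of 24 in S134A-GR cells, and 1 that rose and 7 that fell in WT-GR cells. Of 12 housekeeping genes, 1 rose in S134A-GR cells, and 3 rose and 1 fell in WT-GR cells. The backgrounds for all these counts are those given above for all genes tested (0.414% for the difference of responses). Counts near them say nothing particular of a list.

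Counting sets further limits. Exons of 16 of the 48 genes overlap another gene on the opposite strand and those of 6 overlap one on the same strand in GENCODE v29, and whether the authors' counting used strand is not given in the sources used here. Among the genes given in full, MCM2, GINS3, GINS4 and E2F8 have such a neighbour on the opposite strand and RRM2 has one on the same strand. PCNA, RFC3, RFC5, RPA2, FEN1, RRM2 and TYMS have named pseudogenes, between which and the gene reads could be split.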

How the data were processed

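Gene-level RNA-seq values of 12 MDA-MB-231 libraries, 3 in each of 4 groups, were used. The submitters' processing notes name the hg38 build, featureCounts of Subread, FastQC 0.11.7 and DESeq2 1.22.2; aligner and annotation: not given in the sources used here. The deposited signal values are read counts that the authors divided by a size factor per library, as read from the values: 100% gave whole reads within 0.01. Even counts made up 58.2 to 67.5% of low counts, as counting both mates of a pair would give, so fragments may be fewer than reads.

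Dex files list 26485 names beside 19907 values. Matched to the vehicle files by line, log2 values correlated with the vehicle mean at 0.9822 to 0.986 across genes, and by the 14926 shared names at -0.0059 to -0.004, so vehicle names were used by line order.

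The filter (10 or more in 3 libraries or more) left 15957 genes, tested with limma 3.58.1 (R 4.3.3), with a trend, on log2(value + 1), 1 fit over 12 libraries, two-sided, Benjamini-Hochberg threshold 0.05. Fold changes on this scale understate changes of low genes. On data simulated for Dex in WT-GR cells (15957 genes), 6% of genes changed by 0.3, 58% by 0.5 and 98% by 1 (log2) were called. The simulation changed 200 genes, whereas 27.9% of all genes were called in the measured data. In WT-GR Dex the median SD was 0.091 over the replication genes and 0.148 over all genes. RRM2 and MCM6, which fell by 0.3 in WT-GR cells, were both called. The simulated shares are therefore not an estimate of power for the replication genes. On recovered reads, edgeR 4.0.16 and DESeq2 1.42.0 were alternatives, with others given at the end. Genes given in full are the 4 with the largest called difference per comparison and 5 standing examples. Members and lists were chosen with earlier results of these data known. Promoters are from RefSeq, overlaps and exon lengths from GENCODE v29. PGR, CD3E, ZBTB16 and TEN1 were not analysed here.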

Additional observations from a re-analysis of the deposited data

How the results depend on the processing

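Pseudocounts of 0.5 and 5, no filter on low values, edgeR with TMM and only the compared groups kept every count of called genes within 1.5 times and every median within the spread between replicates. The difference of responses has no separate fit for the compared groups, since it uses all 12 libraries. Of 1308 values of the 12 genes given in full, 1259 kept direction and side of the threshold, 22 lost a call, 27 gained one and 0 reversed.

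The median over the 48 genes for Dex in WT-GR cells was -0.20 with library weights, -0.29 with library size only and -0.30 without WT-GR Dex replicates 2 and 3. Library size only gave genotype medians of 0.13 with Dex and -0.00 with vehicle. Library weights called 35 genes for Dex in S134A-GR cells (32.1% of all genes) and 8 for the difference of responses (17.9% of all genes), whose median was then 0.04; these weights favoured 1 WT-GR vehicle library far above the others. DESeq2 called 4 for that difference (3.16% of all genes). Without WT-GR Dex replicates 2 and 3 limma called 14 for it (16% of all genes), at a median of 0.13, and the genotype median with Dex was 0.07. With names as deposited, the difference of responses had 9 called genes, Dex in S134A-GR cells 33, genotype with Dex 15 and genotype with vehicle 11 (shares over all genes not reported here). The cause of these shifts was not tested, other than that deposited names pair different genes.

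Leaving out 1 library at a time, counts ran from 12 to 26 for Dex in S134A-GR cells, 27 to 38 in WT-GR cells, 0 to 9 for the difference (median 0.04 to 0.09), 19 to 26 for genotype with Dex and 24 to 30 with vehicle. For the difference without WT-GR Dex replicate 3, 10.1% of all genes tested passed. Other shares over all genes tested in these fits are not reported here, so the ranges are not shown to be particular to replication genes.

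Replicate numbers did not pair the samples: deviations of same-numbered libraries correlated at -0.085 to 0.055 and of others at -0.076 to 0.092. With the replicate number as a block, 19 genes were called for Dex in S134A-GR cells, 32 in WT-GR cells, 0 for the difference, 22 for genotype with Dex and 25 with vehicle. Shares over all genes tested with that block are not reported here. Whether depth limits these counts was not tested.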
